A study of Mus musculus with 15 samples.

Results

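Glycolysis turns glucose into pyruvate, and lactate dehydrogenase then interconverts pyruvate and lactate. The transcripts described here were chosen by name as 10 enzymes of this pathway, Hk1, Gpi1, Pfkl, Pfkp, Aldoa, Tpi1, Gapdh, Pgk1, Ldha and Ldhb, and 9 of the 10 were found among the 14392 genes of the expression table. Hk1 was not analysed here. RNA was sequenced from 8 libraries of 10 mouse embryos each by Smart-seq2, a full-length cDNA method for very small inputs, with 2 libraries per group. WT embryos came from Usp16+/+ females. The cKO embryos came from Usp16 fl/fl;Gdf9-Cre females, in which Cre is driven by an oocyte promoter, and they carried the maternal deletion with an intact paternal Usp16 allele. USP16 is a deubiquitinase that removes ubiquitin from histone H2A. Embryos of both genotypes were taken as zygotes and as 2-cell embryos, giving the groups WT zygote, cKO zygote, WT 2-cell and cKO 2-cell. All mothers had a C57BL/6 background. Per the methods, embryos came from superovulated females of pubertal age that had been mated to WT males. Embryos of all groups were cultured in KSOM medium. Nothing in the labels says which mothers gave which library, so the p-values measure the spread between these libraries, and in pooled embryos fewer cells and less RNA per cell cannot be told apart.

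Early mouse embryos are known for a weak use of glucose. The zygote and the 2-cell embryo live mainly on pyruvate and lactate, and flux through glycolysis increases later, towards the blastocyst. Lactate dehydrogenase is a tetramer of A and B subunits encoded by Ldha and Ldhb. The B subunit predominates in the mouse oocyte, where its transcript is stored, and the A subunit is typical of glycolytic tissues such as skeletal muscle. The maternal-to-zygotic transition, in which stored maternal transcripts are degraded and the embryonic genome starts to be transcribed, has its major transcriptional phase in the mouse at the 2-cell stage.

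Among the members, Ldha and Ldhb are those with the largest differences between stages, and they went opposite ways, so the sequence before their starts is shown. The windows are the 250 bases upstream of the start in RefSeq on GRCm38.p6, written 5′ to 3′ on the strand of the gene. Capitals mark matches to CACGTG (the E-box), ACGTG and GGGCGG (the GC box), searched on both strands, and to TATAAA on the strand of the gene. ACGTG is the form with A of the hypoxia response element core, and is also contained in the E-box. GCGTG, the form of that core with G, was not searched. RefSeq lists a further start for Ldha, whose window held no match. The third window is that of Pgk1, a member with ACGTG matches that do not lie in an E-box.
Ldha, first start, chr7:46845554-46845803, plus strand: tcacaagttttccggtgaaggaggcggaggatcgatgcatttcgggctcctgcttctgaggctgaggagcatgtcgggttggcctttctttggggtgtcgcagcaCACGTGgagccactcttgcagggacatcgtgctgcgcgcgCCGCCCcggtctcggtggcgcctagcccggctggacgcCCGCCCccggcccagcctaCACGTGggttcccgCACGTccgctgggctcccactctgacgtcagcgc
Ldhb, chr6:142507958-142508207, minus strand: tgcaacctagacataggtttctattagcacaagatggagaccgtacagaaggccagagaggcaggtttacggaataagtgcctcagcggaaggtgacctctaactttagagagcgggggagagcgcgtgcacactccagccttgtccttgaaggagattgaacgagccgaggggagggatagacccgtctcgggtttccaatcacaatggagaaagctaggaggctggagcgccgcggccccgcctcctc
Pgk1, chrX:106186850-106187099, plus strand: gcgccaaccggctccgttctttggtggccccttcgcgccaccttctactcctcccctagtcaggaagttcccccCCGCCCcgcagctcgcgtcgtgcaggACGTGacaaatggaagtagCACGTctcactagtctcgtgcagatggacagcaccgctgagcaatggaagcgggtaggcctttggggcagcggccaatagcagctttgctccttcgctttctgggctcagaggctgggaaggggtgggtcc
The Ldha window held 2 E-boxes, beginning 145 and 48 bases before the start, 5 matches to ACGTG of which 4 lie in these palindromic E-boxes when both strands are read, and 2 GC boxes. The Ldhb window held none of the 4 motifs as searched, though GCGTG can be read in it. The Pgk1 window held 2 matches to ACGTG, 150 and 131 bases before the start, and 1 GC box. Of 32841 windows of this length, 6.02% held CACGTG, 16.6% ACGTG, 32.7% GGGCGG and 7.59% TATAAA. Among the other members, Gpi1 held 2 GC boxes, Pfkp 4 and Tpi1 1, the windows of Gapdh and Pfkl held no match, and the 3 starts of Aldoa differed in their matches. A match describes the letters of the window and does not show that a factor binds there.

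In mm9, the mouse build of the expression table, the members lie, by positions taken here from GENCODE M1, on autosomes, except for Pgk1 on the X chromosome. Ldhb (chr6:142438769-142456477, minus strand), Gapdh (chr6:125111871-125116485, minus strand) and Tpi1 (chr6:124760604-124764314, minus strand) share chromosome 6. Ldha (chr7:54096845-54110997, plus strand), Gpi1 (chr7:34987141-35015308, minus strand) and Aldoa (chr7:133938748-133944265, minus strand) share chromosome 7. Pfkl is at chr10:77449692-77472828 on the minus strand, Pfkp at chr13:6579014-6648023 on the minus strand and Pgk1 at chrX:103382439-103399038 on the plus strand. RefSeq names 3 pseudogenes each after Gapdh and Ldha, 2 each after Aldoa and Pgk1, and 1 each after Gpi1 and Ldhb. Reads of these genes may have been shared with such copies, which the FPKM values do not show.

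The values are FPKM, fragments scaled to transcript length and to the mapped fragments of the library, and so allow levels of different genes to be compared per length. Values under 1 had been set to 1, called the floor here, and the depth of the libraries is unknown. A group with both libraries at the floor shows no spread, so p-values below may be too small for genes with such groups. The targeted gene, Usp16, was at 184 and 187 FPKM in WT zygotes and at 16.8 and 22.0 FPKM in cKO zygotes, and at 168 and 183 FPKM in WT 2-cell embryos and 168 and 84.8 FPKM in cKO 2-cell embryos. The summed FPKM of the table lay between 547752 and 593317 in 7 libraries and was 770989 in cKO 2-cell replicate 2. The 10 oocyte and maternal markers were all in the table, and their summed level was 15923 to 17412 FPKM in WT zygotes, 16910 to 17690 in cKO zygotes, 7343 to 8952 in WT 2-cell embryos and 6979 to 11353 in cKO 2-cell embryos. Dppa3 and Oosp1 made up much of these sums. In cKO against WT 2-cell embryos 5 of these markers fell and 1, Dppa3, rose, with a median log2 fold change of -1.06, beside 24.6% of all genes that fell, 6.16% that rose and a median of -0.30. Bmp15, an oocyte growth factor, was at 531 and 536 FPKM in WT and 79.7 and 67.5 FPKM in cKO 2-cell embryos (-2.85, SE 0.20, limma adjusted p 9.36e-04), Oosp1 at 4936 and 3711 FPKM in WT and 544 and 1876 FPKM in cKO, Zp1, of the zona pellucida, at 38.0 and 55.7 FPKM in WT and 16.6 and 15.0 FPKM in cKO, and Dppa3 at 2958 and 2472 FPKM in WT and 5888 and 8774 FPKM in cKO. With median-ratio scaling, which divides each library by its median ratio to the average library, 1 of the 10 fell, Bmp15, and 1 rose, Dppa3, beside 13.0% and 11.2% of all genes. Of 7 markers of the 2-cell embryo 4 fell and 1 rose in cKO, beside the same 24.6% and 6.16% of all genes. Zfp352 was at 280 and 468 FPKM in WT and 125 and 103 FPKM in cKO (-1.67, adjusted p 0.0141), and Zscan4c, Zscan4d and Zscan4f fell by 2.21, 1.92 and 2.68 on the log2 scale (adjusted p 0.00536, 0.0324 and 0.0147). Zscan4d did not pass with median-ratio scaling or quantile normalization. Eif1a, the marker that rose, was at 73.8 and 70.3 FPKM in WT and 118 and 139 FPKM in cKO (0.82, limma adjusted p 0.0226). Gm5662 (-1.37) and Klf17 (-0.06) did not pass. With scaling to the table sum Eif1a did not pass and Gm5662 did. Of 10 cumulus and granulosa cell markers only Foxl2, Cyp19a1 and Tnfaip6 were analysed, and their sum, floors included, was 24.3 to 28.7 FPKM in WT zygotes, 24.6 to 24.8 in cKO zygotes, 4.38 to 10.3 in WT 2-cell embryos and 3 to 3.32 in cKO 2-cell embryos. In zygotes that sum was Cyp19a1, with Foxl2 and Tnfaip6 at the floor. Tnp1, a sperm marker, fell from 4.28 and 5.69 FPKM in WT to 1.97 FPKM and the floor in cKO 2-cell embryos (adjusted p 0.00761). The 4 sperm markers analysed, of 7 listed, summed to 16.5 to 23.1, 18.7 to 19.7, 7.28 to 11.4 and 4 to 4.97 FPKM in the same order of groups. Ovgp1, the oviduct marker analysed of 4 listed, reached at most 3.24 FPKM, and Hba-a1, the blood marker analysed of 4 listed, reached at most 8.66 FPKM. The part of such cells in the results below was not tested.

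Levels of the members spanned the range of the table. All 9 were above the floor in every group, 8 of them in all 8 libraries, and Ldha was at the floor in WT zygote replicate 2. Ldhb was among the most abundant transcripts of the zygote. It was at 4697 and 2911 FPKM in WT zygotes, 2506 and 2577 FPKM in cKO zygotes, 479 and 543 FPKM in WT 2-cell embryos and 275 and 218 FPKM in cKO 2-cell embryos. Its rank from the top of the table was 11 and 19 in WT zygotes and 26 and 24 in cKO zygotes, and 172, 129, 401 and 600 in the 2-cell libraries in the order just given. Aldoa, Tpi1, Gapdh and Pgk1, enzymes of the middle of the pathway, lay between 13.9 and 65.6 FPKM in all libraries, Gpi1 between 9.03 and 27.6 FPKM, and the phosphofructokinase transcripts Pfkl and Pfkp between 1.22 and 6.12 FPKM. In zygotes Ldhb thus exceeded Gapdh 118-fold and 128-fold in the WT libraries and 126-fold and 185-fold in the cKO libraries, per length.

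**Figure D1:**
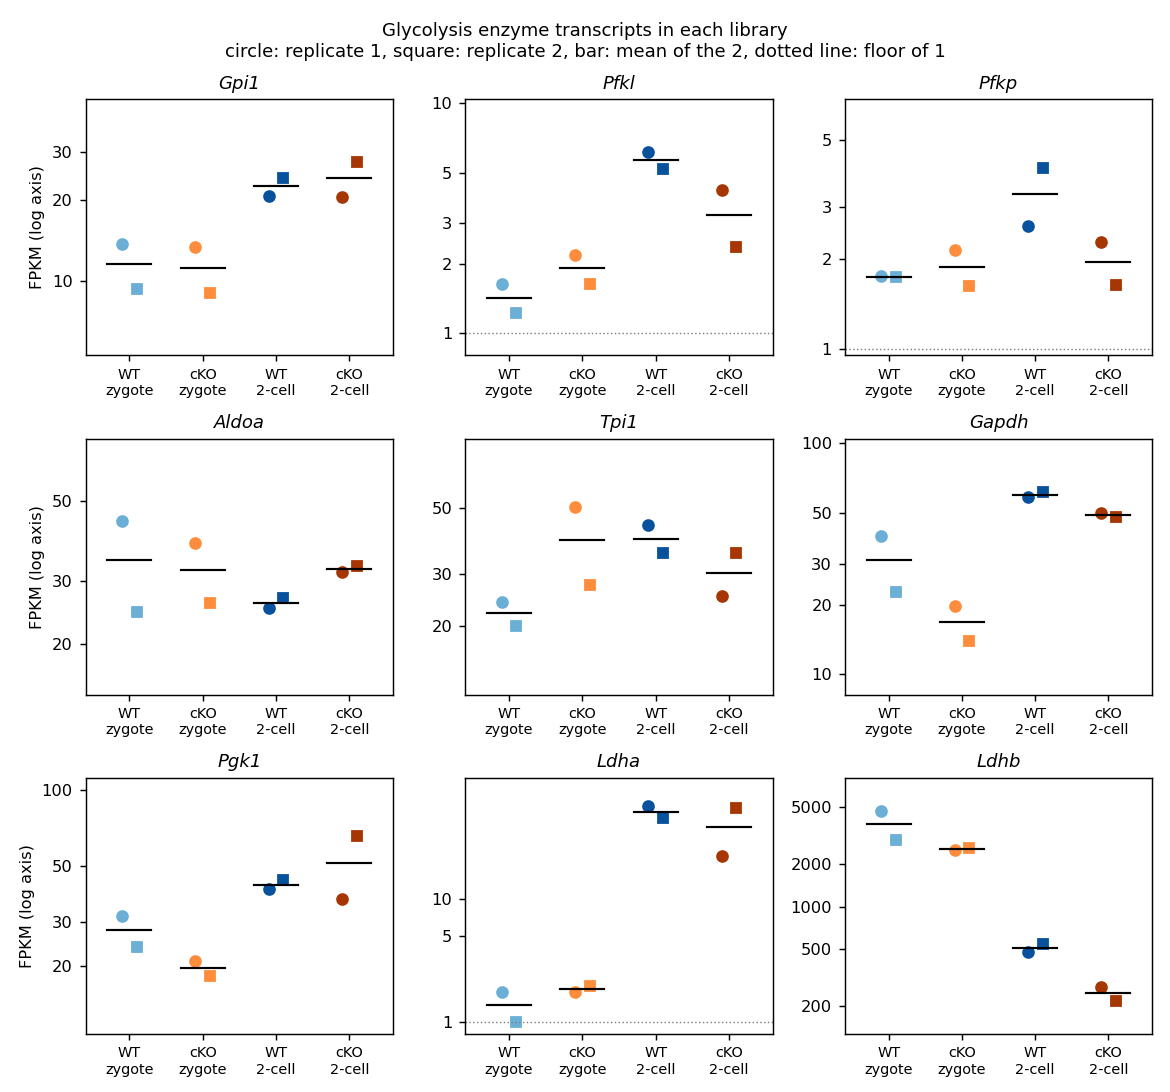
FPKM of the 9 members in each library, on a log axis that differs between panels. Circles are replicate 1, squares replicate 2, bars the mean of the 2 libraries of a group, and the dotted line the floor of 1. Ldhb falls from 2506 or more in zygotes to 543 or less in 2-cell embryos while Ldha goes from 1.97 or less to 22.5 or more.

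The first comparison asks how the transcripts changed from the zygote to the 2-cell embryo in WT. Ldha rose and Ldhb fell, and 4 further members, Pfkl, Gapdh, Gpi1 and Pfkp, rose by smaller amounts, so that 5 of 9 rose and 1 of 9 fell (limma, adjusted p under 0.05 over all genes). Over all genes 34.2% rose and 15.5% fell in this comparison. With median-ratio scaling 2 of 9 members rose, Pfkl and Ldha, beside 28.3% of all genes, and with quantile normalization 1 of 9 rose, Ldha, beside 21.6%, while Ldhb fell in both. The median log2 fold change was 0.81 over the members and 0.27 over all genes, and 0.49 and 0.07 with median-ratio scaling.

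Ldha was at 1.75 FPKM and the floor of 1 in WT zygotes and at 57.7 and 46.3 FPKM in WT 2-cell embryos. The groups lay far apart, with a ratio of means of 37.7 when the floor is counted as 1, a log2 fold change of 4.49 (SE 0.44) and an adjusted p of 4.84e-04 (limma). Ldhb was at 4697 and 2911 FPKM in WT zygotes against 479 and 543 FPKM in WT 2-cell embryos, which is 3804 ± 1263 against 511 ± 45.3 (SD, n = 2). Its zygote mean was 7.44 times the 2-cell mean, and it fell by 2.85 on the log2 scale (SE 0.30, limma adjusted p 6.36e-04). Both calls held in all 17 alternatives run, each replicate left out included.

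Among the enzymes upstream of lactate dehydrogenase, Pfkl, the liver type subunit of phosphofructokinase and thus of a regulated step, was at 1.63 and 1.22 FPKM in WT zygotes and 6.12 and 5.21 FPKM in WT 2-cell embryos. Its groups did not overlap and its mean was 3.97 times higher at the 2-cell stage (log2 fold change 1.46, SE 0.26, limma adjusted p 0.00435). That call held in each leave-one-out fit and was lost only with quantile normalization (adjusted p 0.0786) among the alternatives that tested this gene. Pfkp, the platelet type subunit, went from 1.76 and 1.74 FPKM to 2.59 and 4.03 FPKM, a difference of 0.63 (SE 0.21, limma adjusted p 0.0494) that was -0.33 with quantile normalization. The ratio of Pfkl to Pfkp was 0.925 and 0.702 in WT zygotes and 2.36 and 1.29 in WT 2-cell embryos.

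Gpi1, which isomerizes glucose 6-phosphate, was at 13.7 and 9.36 FPKM in WT zygotes and 20.7 and 24.1 FPKM in WT 2-cell embryos (log2 fold change 0.92, SE 0.30, limma adjusted p 0.0440). Gapdh, the dehydrogenase that forms NADH in the pathway, was at 39.8 and 22.7 FPKM and then at 58.2 and 61.5 FPKM (log2 fold change 0.97, SE 0.31, limma adjusted p 0.0403). Each of these transcripts was higher in both 2-cell libraries than in either zygote library. Over the members 7 of 9 were higher and 1 of 9 was lower without overlap between the WT stages, beside 49.4% and 26.4% of all genes. These calls of Gpi1, Gapdh and Pfkp stand close to the threshold. All 3 were lost with median-ratio scaling (limma adjusted p 0.179 for Gpi1, 0.120 for Gapdh and 0.157 for Pfkp) and with quantile normalization (0.349, 0.0937 and 0.185). That of Gpi1 was lost without any one of the WT or cKO zygote or WT 2-cell libraries, that of Pfkp without any library except WT 2-cell replicate 1, and that of Gapdh without any library except WT zygote replicate 1, with adjusted p from 0.0446 to 0.208, 0.0293 to 0.179 and 0.0211 to 0.174 over the leave-one-out fits.

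Triose phosphate isomerase (Tpi1) was at 24.2 and 19.96 FPKM in WT zygotes and 43.8 and 35.3 FPKM in WT 2-cell embryos, with a log2 fold change of 0.81 (SE 0.34) that did not pass (limma adjusted p 0.0951). It passed with the 2 groups compared alone (limma adjusted p 0.0402). Pgk1, the first enzyme of the pathway to make ATP, was at 31.6 and 23.9 FPKM and then 40.5 and 43.8 FPKM (0.60, SE 0.31, adjusted p 0.159), and it passed without either cKO 2-cell library (adjusted p 0.0401 in both fits). Aldoa, the muscle type aldolase, was at 44.0 and 24.5 FPKM in WT zygotes and 25.2 and 26.9 FPKM in WT 2-cell embryos, and these ranges overlapped (-0.32, SE 0.32, adjusted p 0.438). By the rule of a ratio of means above 3, Ldha and Pfkl were higher and Ldhb was lower at the WT 2-cell stage, where 26.0% of all genes were higher and 8.78% lower.

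In cKO embryos the same change of stage gave 4 members that rose, Ldha, Gapdh, Pgk1 and Gpi1, and 1 that fell, Ldhb, against 24.6% of all genes that rose and 27.1% that fell. Ldha was at 1.75 and 1.97 FPKM in cKO zygotes and 22.5 and 56.1 FPKM in cKO 2-cell embryos (log2 fold change 3.68, SE 0.44, limma adjusted p 8.22e-04). Ldhb was at 2506 and 2577 FPKM and then 275 and 218 FPKM, which is 10.3 times lower by the means (it fell by 3.37 on the log2 scale, SE 0.30, limma adjusted p 2.96e-04). Gapdh went from 19.8 and 13.9 FPKM to 50.0 and 47.7 FPKM (1.50, SE 0.31, adjusted p 0.00709), Pgk1 from 21.0 and 18.4 FPKM to 36.9 and 65.6 FPKM (1.28, SE 0.31, adjusted p 0.0136) and Gpi1 from 13.4 and 9.03 FPKM to 20.5 and 27.6 FPKM (1.05, SE 0.30, adjusted p 0.0264). Over the members 5 of 9, Pfkl included, were higher and 1 of 9 was lower without overlap between the cKO stages, beside 32.3% and 35.5% of all genes.

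The Gapdh call was lost without cKO zygote replicate 2 (adjusted p 0.0536). The Pgk1 call was lost without either cKO zygote library (adjusted p 0.0572 and 0.0825), and the Gpi1 call without cKO zygote replicate 2, either WT 2-cell library or cKO 2-cell replicate 2 (adjusted p 0.0628 to 0.151). Pfkl was at 2.19 and 1.63 FPKM in cKO zygotes and 4.19 and 2.37 FPKM in cKO 2-cell embryos (0.53, SE 0.26, adjusted p 0.137), and it passed without cKO 2-cell replicate 2 (0.84, adjusted p 0.0221) and with median-ratio scaling (0.66, adjusted p 0.0407). The calls of Gapdh, Pgk1 and Gpi1 were also lost with a spread of its own for each group. Those of Pgk1 and Gpi1 were lost with the 2 groups compared alone as well. Pfkp, Tpi1 and Aldoa had log2 fold changes of 0.04, -0.31 and 0.03 and did not pass. The median over the members was 0.53, beside 0.00 over all genes.

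Whether the change from zygote to 2-cell embryo differed between genotypes was tested as an interaction. No member passed, beside 1.58% of all genes with a positive and 10.2% with a negative interaction. The interaction had an unadjusted p under 0.05 for 1 of the 9 members, beside 30.8% of all genes. For Pfkl it was -0.93 on the log2 scale (limma adjusted p 0.145), for Tpi1 -1.12 (0.178), for Ldha -0.81 (0.444), for Pgk1 0.68 (0.349), for Pfkp -0.59 (0.242), for Gapdh 0.53 (0.469) and for Ldhb -0.52 (0.473). The cKO 2-cell libraries decided calls here. Without cKO 2-cell replicate 1, Pfkl (-1.24, adjusted p 0.0280) and Pgk1 (1.09, adjusted p 0.0460) passed, beside 7.64% of all genes with a positive and 24.4% with a negative interaction in that fit. Without replicate 2, Ldha passed (-1.45, adjusted p 0.0486), beside 6.71% and 18.2% of all genes.

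**Figure D2:**
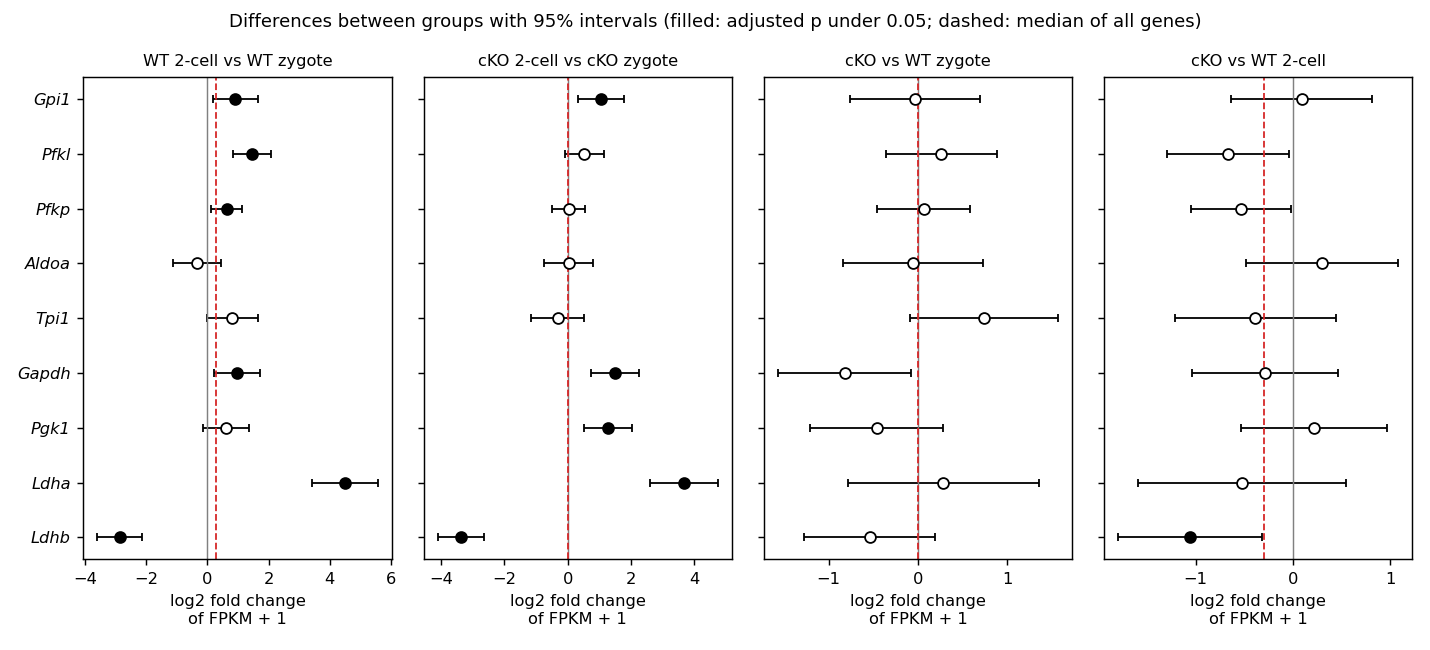
log2 fold change of FPKM + 1 for each member in the comparisons of stage and genotype, with 95% intervals from limma. Filled points have an adjusted p under 0.05, and the dashed line is the median of all genes. Ldha and Ldhb stand apart in both stage comparisons, at 4.49 and -2.85 in WT, and Ldhb is the one filled point of the genotype comparisons. The horizontal scales differ between panels.

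The share of a transcript within a library stays the same when all values of that library are multiplied by a factor, though not under quantile normalization. Ldhb made up 96.7% and 96.5% of the summed FPKM of the 9 members in WT zygotes and 94.4% and 96.3% in cKO zygotes. At the 2-cell stage it made up 65.3% and 68.7% in WT and 58.7% and 44.7% in cKO. The summed FPKM of the other 8 members was 158 and 104 in WT zygotes, 149 and 100 in cKO zygotes, 255 and 247 in WT 2-cell embryos and 193 and 269 in cKO 2-cell embryos, so the genotypes overlapped at both stages in these values as deposited. Of the summed FPKM of Ldha and Ldhb, Ldha gave 0.0373% and 0.0343% in WT zygotes and 0.0699% and 0.0763% in cKO zygotes. It gave 10.7% and 7.85% in WT 2-cell embryos and 7.59% and 20.5% in cKO 2-cell embryos. Ldhb therefore remained the more abundant subunit transcript in every library, at 3.88 to 12.2 times Ldha at the 2-cell stage. The share in WT zygote replicate 2 rests on a value at the floor and is an upper limit.

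**Figure D3:**
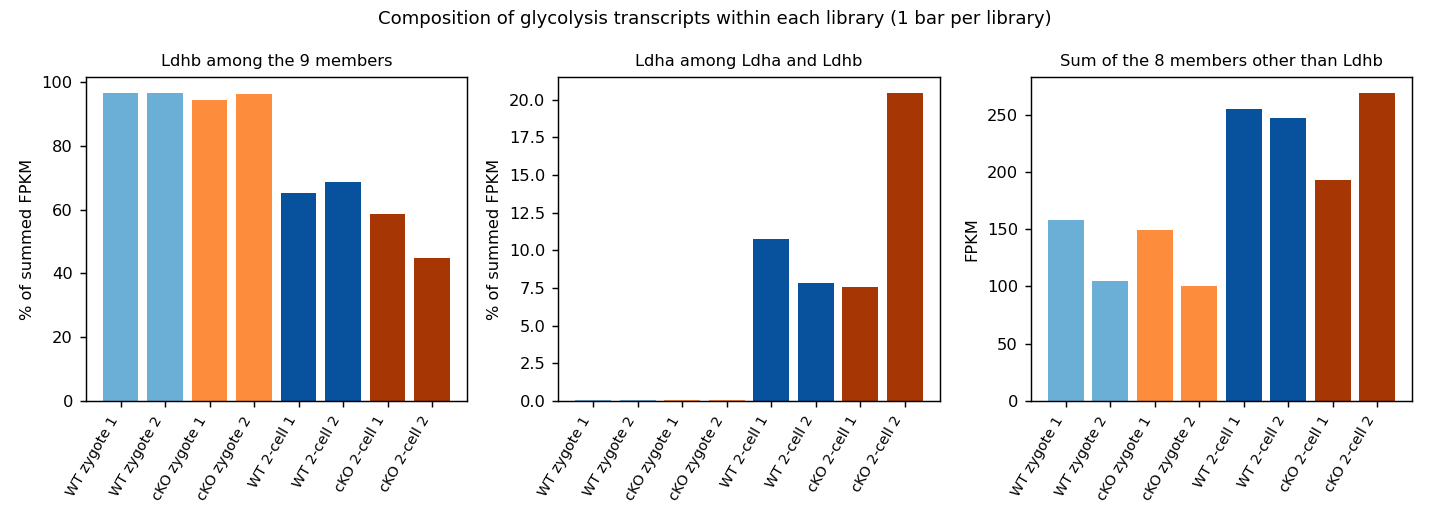
Within each library, Ldhb as a percentage of the summed FPKM of the 9 members (left), Ldha as a percentage of Ldha plus Ldhb (middle) and the summed FPKM of the 8 members other than Ldhb (right). Each bar is 1 library. Ldhb is at 94.4% or more in zygotes and 68.7% or less in 2-cell embryos, and the middle bars of zygotes are at most 0.0763%.

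The effect of the maternal deletion was first compared in zygotes, where most RNA is of maternal origin. No member passed, while 0.0208% of all genes rose and 0% fell (limma). An unadjusted p under 0.05 was found for 1 member and for 408 of all genes. That member was Gapdh, at 39.8 and 22.7 FPKM in WT zygotes and 19.8 and 13.9 FPKM in cKO zygotes, where the cKO mean was 0.539 times the WT mean (log2 fold change -0.82, SE 0.31, unadjusted p 0.0358, adjusted p 1). Tpi1 was at 24.2 and 19.96 FPKM in WT and 50.6 and 27.5 FPKM in cKO zygotes (0.74, adjusted p 1). Ldhb had a log2 fold change of -0.54 and Pgk1 of -0.46. The 2 genotypes did not overlap for Gapdh, Pgk1 and Ldhb, which were lower in cKO, and for Pfkl and Tpi1, which were higher, beside 10.2% of all genes that did not overlap as lower and 15.8% as higher. The median log2 fold change was -0.04 over the members and 0.00 over all genes. No member passed the 3-fold rule in zygotes, which 0.104% of all genes passed as higher and 0.0486% as lower.

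Replicates of the zygotes differed in a common direction. All 9 members were higher in replicate 1 than in replicate 2 of WT zygotes, with a median log2 ratio of 0.55, beside 61.6% of the genes above the floor and a median of 0.13. In cKO zygotes 7 of 9 were higher in replicate 1, with a median of 0.43, beside 62.3% and 0.10. In WT 2-cell embryos 3 of 9 were higher in replicate 1, beside 50.7% of the genes above the floor, and in cKO 2-cell embryos 4 of 9, beside 56.0%. Over these genes the median absolute log2 ratio between replicates was 0.74 in cKO 2-cell embryos. It was 0.32 in WT zygotes, 0.23 in cKO zygotes and 0.31 in WT 2-cell embryos. Over the members it was 0.48 in cKO 2-cell embryos and 0.55 in WT zygotes. Genes at the floor numbered 3684 and 4240 in cKO and 1642 and 1716 in WT 2-cell embryos.

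At the 2-cell stage Ldhb fell in cKO embryos and no other member passed. Of 9 members 0 rose and 1 fell, beside 6.16% of all genes that rose and 24.6% that fell (limma). An unadjusted p under 0.05 was found for 3 of the 9 members, beside 42.5% of all genes. Ldhb was at 479 and 543 FPKM in WT and 275 and 218 FPKM in cKO 2-cell embryos. Both cKO libraries were below both WT libraries, and the cKO mean was 0.481 times the WT mean, with a log2 fold change of -1.06 (SE 0.30, 95% interval -1.79 to -0.32, adjusted p 0.0429). Within a library, Ldhb was 8.23 and 8.83 times Gapdh in WT and 5.49 and 4.56 times Gapdh in cKO 2-cell embryos, and these ratios did not overlap either. Ldhb was lower in cKO in all 17 alternatives and passed in 8 of them. The call was lost without cKO zygote replicate 1 or 2, WT 2-cell replicate 1 or 2, or cKO 2-cell replicate 2 (log2 fold change -0.89). It was lost with median-ratio scaling, which gave -0.58 (limma adjusted p 0.232), and with a spread of its own for each group (limma adjusted p 0.382). The replicate block described below and the 2 groups compared alone lost it as well.

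Pfkl and Pfkp, the other members with an unadjusted p under 0.05, were also lower in both cKO libraries than in either WT library. With Gapdh and Ldhb, 4 of 9 members were lower without overlap and 1 was higher, beside 43.4% and 14.0% of all genes. Pfkl was at 6.12 and 5.21 FPKM in WT and 4.19 and 2.37 FPKM in cKO (-0.67, SE 0.26, limma adjusted p 0.0985). Without cKO 2-cell replicate 1 its log2 fold change was -0.98. Pfkp was at 2.59 and 4.03 FPKM in WT and 2.28 and 1.64 FPKM in cKO (-0.53, SE 0.21, adjusted p 0.109). With quantile normalization their log2 fold changes were 0.04 and 0.19. Ldha was at 57.7 and 46.3 FPKM in WT and 22.5 and 56.1 FPKM in cKO. These ranges overlapped (-0.52, SE 0.44, 95% interval -1.59 to 0.55, limma adjusted p 0.403), and without cKO 2-cell replicate 2 the log2 fold change of Ldha was -1.16.

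The middle enzymes showed no difference that passed. Gapdh was at 58.2 and 61.5 FPKM in WT and 50.0 and 47.7 FPKM in cKO 2-cell embryos (-0.29, SE 0.31, limma adjusted p 0.510), and with median-ratio scaling its log2 fold change was 0.18. Pgk1 was at 40.5 and 43.8 FPKM in WT and 36.9 and 65.6 FPKM in cKO (0.22, adjusted p 0.624). Tpi1 was at 43.8 and 35.3 FPKM in WT and 25.2 and 35.3 FPKM in cKO (-0.39, adjusted p 0.424). Aldoa, at 25.2 and 26.9 FPKM in WT and 31.7 and 32.9 FPKM in cKO, was higher in each cKO library than in either WT library, without passing (0.30, SE 0.32, adjusted p 0.515). Gpi1 was at 20.7 and 24.1 FPKM in WT and 20.5 and 27.6 FPKM in cKO (0.09, adjusted p 0.867).

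The median log2 fold change of cKO against WT 2-cell embryos was -0.39 over the members and -0.30 over all genes. With median-ratio scaling these were 0.08 and 0.02, with scaling to the table sum -0.63 and -0.45 and with quantile normalization 0.04 and 0.01. The direction for the group as a whole thus follows the scaling, as it does for all genes, of whose calls 80.0% were lower as deposited and 53.8%, 88.1% and 51.7% with these scalings. No member passed the 3-fold rule, which 2.84% of all genes passed as higher and 13.5% as lower.

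The other glycolysis enzymes were taken from a fixed list, of which 14 were analysed. In cKO against WT 2-cell embryos 1 of these rose, Pgam2, and 4 fell, Bpgm, Pkm2, Eno3 and Adpgk, beside the 6.16% and 24.6% of all genes. With median-ratio scaling 3 rose, Hkdc1, Pgam1 and Pgam2, and 1 fell, Bpgm, beside 11.2% and 13.0% of all genes. Bpgm makes 2,3-bisphosphoglycerate from an intermediate of the pathway. It was at 1491 and 1409 FPKM in WT zygotes, 1308 and 1197 FPKM in cKO zygotes, 181 and 290 FPKM in WT 2-cell embryos and 75.3 and 48.5 FPKM in cKO 2-cell embryos. Like Ldhb it was high in zygotes and lower at the 2-cell stage, and it was lower in cKO than in WT 2-cell embryos (-1.90, SE 0.32, limma adjusted p 0.00832). Pkm2 encodes pyruvate kinase, which makes pyruvate and ATP, and was at 97.9 and 125 FPKM in WT and 57.4 and 32.0 FPKM in cKO 2-cell embryos (-1.35, SE 0.35, adjusted p 0.0333). Its zygote values were 43.1 and 29.6 FPKM in WT and 38.2 and 28.5 FPKM in cKO.

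Eno3, the muscle type enolase, was at the floor in all zygote libraries and at 5.38 and 4.33 FPKM in WT and 1.15 and 2.25 FPKM in cKO 2-cell embryos (-1.14, SE 0.21, limma adjusted p 0.0105). Pgam2, the muscle type phosphoglycerate mutase, was above the floor only in cKO 2-cell embryos, at 4.20 and 4.27 FPKM (adjusted p 5.97e-04, on the log2(FPKM + 1) scale). Adpgk, which phosphorylates glucose with ADP, was at 16.1 and 17.6 FPKM in WT and 10.5 and 9.18 FPKM in cKO 2-cell embryos (-0.72, SE 0.19, adjusted p 0.0357).

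Hk2 and Hkdc1, of the hexokinases that start the pathway, were low. Hk2 was at 1.04 FPKM in WT zygote replicate 1 and at the floor elsewhere, and Hkdc1 was above the floor only in cKO 2-cell embryos, at 2.86 and 1.24 FPKM. Pfkm, the muscle type phosphofructokinase, did not exceed 2.56 FPKM and Aldoc did not exceed 1.98 FPKM. Pgam1, the widely expressed mutase, was at 8.95 and 8.50 FPKM in WT zygotes, 7.42 and 8.18 FPKM in cKO zygotes, 47.9 and 58.8 FPKM in WT and 138 and 54.6 FPKM in cKO 2-cell embryos, and it rose between the WT stages (log2 fold change 2.48, SE 0.42, limma adjusted p 0.00383). Pgam5, a mitochondrial phosphatase of the mutase family, fell between the WT stages, from 16.5 and 16.4 FPKM to 5.03 and 5.75 FPKM (-1.45, adjusted p 0.00397). Eno1 ranged from 2.82 to 17.4 FPKM, Ldhc, the testis type lactate dehydrogenase subunit, from 1.45 to 56.9 FPKM and Ldhd from the floor to 3.54 FPKM. Of the 14, 4 rose between the WT stages (Pgam1, Eno3, Pkm2 and Ldhc) and 2 fell (Pgam5 and Bpgm), beside 34.2% and 15.5% of all genes.

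**Figure D4:**
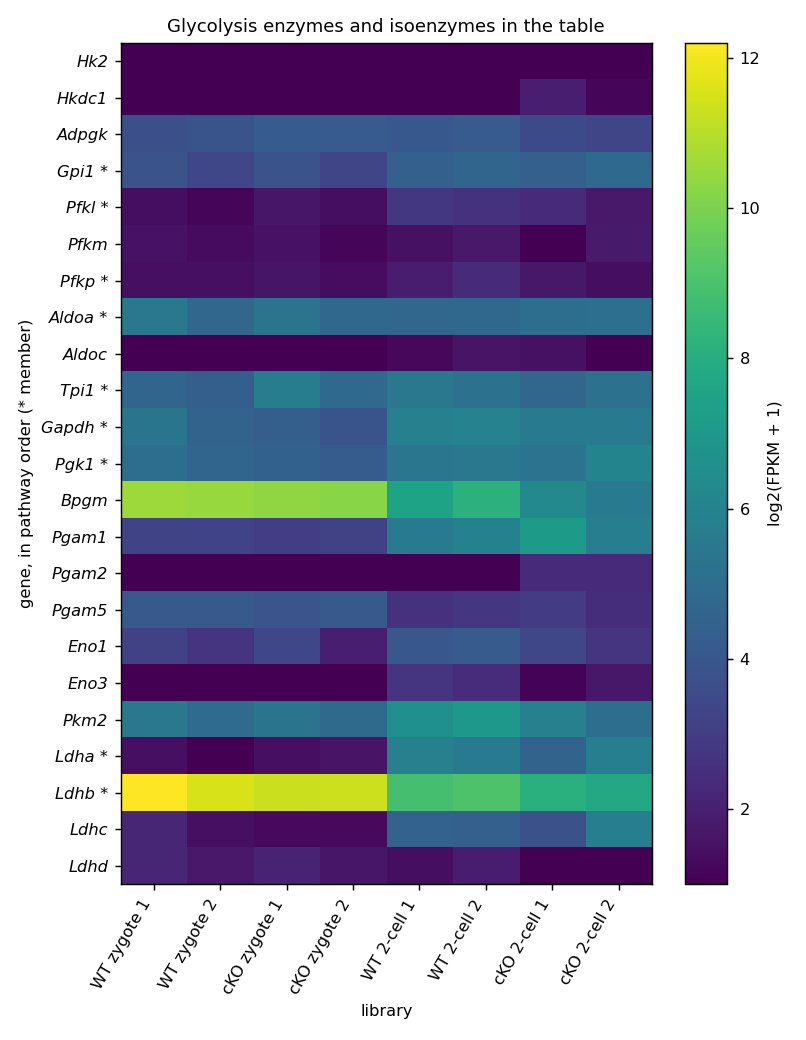
log2(FPKM + 1) of the 9 members (marked with an asterisk) and the 14 other glycolysis enzymes analysed, in the order of the pathway from top to bottom, with 1 column per library. Ldhb and Bpgm are the brightest rows in zygotes and are darker in 2-cell embryos, at 543 and 290 FPKM or less.

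Genes that feed or control the pathway were taken from fixed lists, chosen with earlier results of these data known. Over all genes 6.16% rose and 24.6% fell in cKO against WT 2-cell embryos as deposited, and 11.2% rose and 13.0% fell with median-ratio scaling. Of 10 regulators measured 1 rose and 3 fell, and with median-ratio scaling 2 rose and 2 fell. Gckr, a regulatory protein known from liver, was at 10.1 and 8.46 FPKM in WT and at 1.21 FPKM and the floor in cKO (-2.29, SE 0.25, limma adjusted p 0.00261), after 32.4 to 47.5 FPKM in zygotes. The bifunctional enzymes that set fructose 2,6-bisphosphate, an activator of phosphofructokinase, went different ways. Pfkfb3 rose from 4.30 and 4.03 FPKM in WT to 8.24 and 8.22 FPKM in cKO (0.84, SE 0.14, adjusted p 0.00831), Pfkfb4 fell from 2.96 and 2.85 FPKM to the floor (adjusted p 8.56e-04) and Pfkfb2 fell from 2.09 and 1.60 FPKM to the floor (adjusted p 0.0460). Of 8 glucose and monocarboxylate transporter genes 0 rose and 3 fell, beside the 6.16% and 24.6% of all genes, and with median-ratio scaling 1 fell, Slc2a8. Slc2a8, an intracellular glucose transporter, was at 6.61 and 6.76 FPKM in WT and 1.39 FPKM and the floor in cKO 2-cell embryos (-1.81, SE 0.12, adjusted p 8.36e-04), and Bsg, the chaperone of monocarboxylate transporters, was at 42.6 and 46.1 FPKM in WT and 18.9 and 21.1 FPKM in cKO (-1.11, SE 0.25, adjusted p 0.0201). Slc2a4, the insulin-responsive transporter, was at 1.51 and 2.02 FPKM in WT and the floor in cKO (adjusted p 0.0144).

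Of 14 genes for the entry of pyruvate into the mitochondrial cycle 1 rose and 4 fell, beside 6.16% and 24.6% of all genes, and with median-ratio scaling 3 rose and 2 fell, beside 11.2% and 13.0%. Dld, the dehydrogenase shared by several complexes, was at 19.9 and 16.6 FPKM in WT and 39.4 and 49.0 FPKM in cKO 2-cell embryos (1.23, SE 0.20, limma adjusted p 0.00768). Its partner Dlat, the acetyltransferase of the pyruvate dehydrogenase complex, was at 5.74 and 6.11 FPKM in WT and 1.60 FPKM and the floor in cKO (-1.60, SE 0.24, adjusted p 0.00621). Pdp1, the phosphatase that activates the complex, was at 11.3 and 10.9 FPKM in WT and 3.07 and 3.36 FPKM in cKO (-1.53, adjusted p 0.00374), and Pdk1, a kinase that inactivates it, was at 13.9 and 8.69 FPKM in WT and 3.21 and 5.69 FPKM in cKO (-1.18, adjusted p 0.0392). Both an activator and an inhibitor of the complex thus fell in the values as deposited, and Pdk1 did not pass with median-ratio scaling.

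Of 11 pentose phosphate genes 1 rose and 2 fell, beside 6.16% and 24.6% of all genes, and with median-ratio scaling 2 rose and 0 fell, beside 11.2% and 13.0%. G6pdx, the dehydrogenase that opens that pathway, was at 287 and 193 FPKM in WT zygotes, 223 and 194 FPKM in cKO zygotes, 80.7 and 71.5 FPKM in WT and 23.0 and 31.1 FPKM in cKO 2-cell embryos (cKO against WT 2-cell -1.47, SE 0.27, limma adjusted p 0.0106). Prps1, which makes phosphoribosyl pyrophosphate, was at 2.28 to 3.51 FPKM in zygotes, 509 and 554 FPKM in WT and 1243 and 858 FPKM in cKO 2-cell embryos (0.96, SE 0.26, limma adjusted p 0.0349). Prps1 did not pass with scaling to the table sum or with quantile normalization. Tktl2, a transketolase relative, was at 6.26 and 2.23 FPKM in WT and the floor in cKO (adjusted p 0.0421). Of 6 gluconeogenesis genes 0 rose and 3 fell as deposited, and 0 rose and 3 fell with median-ratio scaling, beside these shares of each. These were G6pc3 from 11.1 and 10.8 FPKM in WT to 4.40 and 2.67 FPKM in cKO (-1.42, adjusted p 0.0176), Pck2 from 4.92 and 5.14 FPKM to 1.95 and 1.42 FPKM (-1.17, adjusted p 0.00241) and G6pc2 from 2.79 and 2.55 FPKM to the floor (adjusted p 0.00108). Of 10 genes of the NADH shuttles 0 rose and 3 fell as deposited, and with median-ratio scaling 1 rose and 2 fell, beside the same shares. Gpd1 was the call lost. As deposited, Slc25a13 was at 7.72 and 14.2 FPKM in WT and 1.94 FPKM and the floor in cKO (-2.25, adjusted p 0.00693), Slc25a11 at 42.9 and 34.6 FPKM in WT and 16.6 and 11.9 FPKM in cKO (-1.39, adjusted p 0.0189) and Gpd1 at 1.56 and 1.58 FPKM in WT and the floor in cKO (adjusted p 0.00517). In zygotes no gene of these lists or of the other glycolysis enzymes passed between the genotypes, beside 0.0208% of all genes that rose.

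Gapdh is widely used as a reference in quantitative PCR, so its level was set beside other transcripts with that use. Gapdh varied from 13.9 to 61.5 FPKM over the 8 libraries, and passed in both stage comparisons as deposited. Its call between the WT stages was lost with median-ratio scaling and with quantile normalization, as given above. Its ratio to Actb was 0.483 and 0.313 in WT zygotes, 0.212 and 0.140 in cKO zygotes, 0.629 and 0.638 in WT 2-cell embryos and 0.549 and 1.34 in cKO 2-cell embryos. The ratio did not overlap between genotypes in zygotes, and in cKO 2-cell embryos its replicates differed, with Actb at 91.1 and 35.7 FPKM. Its ratio to H2afz was 0.160 to 0.405 in zygotes and 0.00996 to 0.0413 in 2-cell embryos, where H2afz reached 1492 to 4793 FPKM. Of the 13 reference transcripts measured 8 rose and 2 fell between the WT stages, beside 34.2% and 15.5% of all genes. In cKO against WT 2-cell embryos Ppia and Hprt rose and Ywhaz and Gusb fell, beside 6.16% and 24.6% of all genes. With median-ratio scaling Tbp and H2afz rose as well, and 4 rose and 2 fell, beside 11.2% and 13.0%. Ppia was at 828 and 613 FPKM in WT and 1895 and 4117 FPKM in cKO (1.97, SE 0.42, limma adjusted p 0.0168), Hprt at 283 and 285 FPKM in WT and 766 and 1015 FPKM in cKO (1.63, SE 0.25, adjusted p 0.00627), Ywhaz at 336 and 358 FPKM in WT and 111 and 79.0 FPKM in cKO (-1.88, SE 0.23, adjusted p 0.00336) and Gusb at 4.19 and 4.32 FPKM in WT and 1.60 FPKM and the floor in cKO (adjusted p 0.00277).

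The genes most like Gapdh and Ldhb over the 8 libraries were listed by Pearson's r of log2(FPKM + 1), as a description over libraries that share stage and genotype. For Gapdh they were Gm10052 (0.992), Atp13a1 (0.981), Chmp1a (0.968), Fastkd3 (0.963) and Cby1 (0.960). Gm10052 was at 93.1 and 61.1 FPKM in WT zygotes, 61.5 and 43.7 FPKM in cKO zygotes, 152 and 157 FPKM in WT and 125 and 116 FPKM in cKO 2-cell embryos. For Ldhb they were Fanci, Slc6a7 and Shroom2 (0.996 each) and Sdha and Crym (0.995 each). No member was among the genes listed for either.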

How the data were processed

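RNA-seq libraries of 10 pooled embryos were prepared by Smart-seq2. Per the methods and the submitters' processing notes, the authors trimmed reads, aligned these with TopHat2 2.1.1 to mouse mm9 and obtained FPKM from Cufflinks 2.2.1. The deposited values are FPKM per gene, described as normalized without a further method, with values under 1 set to 1 and genes at 1 throughout removed. The annotation is not given in the sources used here. ChIP samples were not analysed here.

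Groups were taken from the labels. limma 3.58.1 (R 4.3.3) was fitted to log2(FPKM + 1) with 4 groups in 1 model, a trend in the prior, Benjamini-Hochberg adjustment over 14392 genes at 0.05 and 4 residual degrees of freedom. This scale understates the change of low genes. Groups at the floor add no spread to the shared estimate, which gives such genes small standard errors (0.05 for Gpd1 between the 2-cell genotypes). Their adjusted p-values may therefore be too small. An exact permutation of 2 against 2 libraries cannot give a two-sided p under 0.333, so none was used. The 3-fold rule on group means is that of the study. Python 3.11.15, numpy 2.4.6, pandas 2.3.3 and matplotlib 3.10.9 were used for other values. The fit was tested on simulated data.

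The members and lists were chosen with earlier results of these data known. Named were all members, Usp16, the other glycolysis enzymes, up to 4 genes per list with the largest called difference between 2-cell genotypes and the 5 genes most like Gapdh and Ldhb. Actb and H2afz ratios were added as context. Alternatives varied the pseudocount, a filter on low values, the scaling, the model of the spread, the replicate block, the fold threshold and the libraries. A listed gene is not reported here.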

Additional observations from a re-analysis of the deposited data

How the results depend on the processing

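Of 604 alternative values over 36 member and comparison pairs, 26 changed sign, and 1 of these was a called value. Pfkp between the WT stages was then -0.33 with quantile normalization. Ldha and Ldhb passed in both stage comparisons under every alternative run. In cKO against WT 2-cell embryos 1 member passed, and 0 passed with median-ratio scaling, with a group-specific spread or with the groups compared alone. Of all genes, 887 rose and 3538 fell there, 1605 and 1871 with median-ratio scaling, and 120 and 854 with a group-specific spread. With the groups compared alone 0 of all 14392 genes passed and 4235 had an unadjusted p under 0.05. Leaving out single libraries also changed this call, as given above. Between the WT stages 6 members passed, and 3 passed with median-ratio scaling, 2 with quantile normalization and 3 with a group-specific spread. Leaving out single libraries changed these calls too, as given above. Of all 14392 genes, 4921 rose and 2224 fell there, 4069 and 2929 with median-ratio scaling, 3102 and 3935 with quantile normalization, and 5269 and 2141 with a group-specific spread. With the replicate block 4 members passed (Pfkl, Gapdh, Ldha and Ldhb), beside 4834 genes that rose and 2187 that fell. With the groups compared alone 4 passed (Pfkl, Tpi1, Ldha and Ldhb), beside 5049 and 2311. Between the cKO stages 5 passed, and 6 passed with median-ratio scaling (Pfkl added), 3 with the groups compared alone and 2 with a group-specific spread. Calls changed here as well with single libraries left out, as given above. Of all genes, 3545 rose and 3896 fell there, 3997 and 3648 with median-ratio scaling, 2520 and 2928 with the groups compared alone, and 2984 and 2623 with a group-specific spread. For the interaction 0 passed, which depended on the cKO 2-cell libraries, as given above. With a 2-fold instead of a 3-fold threshold, 1 member, Ldhb, was lower in cKO 2-cell embryos instead of 0. The share of all genes at 2-fold is not given here, so this count has no background beside it. Where a fit left 1 library in a group, that library was assumed to vary like the other groups.

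The replicate numbers are not known to pair the samples. The correlation of same-numbered libraries was -0.239 between the 2-cell genotypes, 0.497 between the zygote genotypes, 0.110 between the WT stages and 0.0428 between the cKO stages. With the replicate block, 0 members passed in cKO against WT 2-cell embryos (Ldhb adjusted p 0.0610 by limma), beside 5.42% of all genes that rose and 23.3% that fell. A crossed replicate block, added after seeing the data, also gave 0, beside 6.48% and 24.6%. Depth is unknown, so low members such as Pfkl, Pfkp and zygotic Ldha have no counting error beside them, and the cause of the differences between settings was not tested.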
